A study of Homo sapiens with 26 samples.

Results

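The 10 genes described here are CYR61, CTGF, ANKRD1, AMOTL1, AMOTL2, AJUBA, LATS2, YAP1, TEAD1 and WWTR1, the core of the YAP and TEAD branch of the Hippo pathway and several of its best known target genes. They were taken by gene symbol, and all 10 were present among the 11524 genes listed in all 3 deposited tables. The genes were chosen by knowledge of the pathway and with the measured siRNA-against-control changes of these same libraries in view. Each change against controls is therefore given as a description, without a test.

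RNA was measured in 786-O, an established human line from a clear cell carcinoma of the kidney without functional VHL, grown in RPMI with 10% FBS. Each of 5 genes was knocked down with 2 FlexiTube siRNAs (Qiagen), giving 10 siRNA groups, and 3 control groups received a non-targeting siRNA, each group with 2 libraries (26 libraries in all). The targets were SART1, a splicing factor, DDX39A, an RNA helicase of mRNA export, SARNP, an RNA-binding partner of that export machinery, FIBP, an intracellular binding partner of fibroblast growth factor, and TMEM259, an endoplasmic reticulum protein also known as membralin. The siRNAs were delivered with DharmaFECT 1, cells were split at 24 h and harvested 48 h after transfection, and directional poly(A) libraries were sequenced with paired 42-base reads. The SART1 groups, the DDX39A and SARNP groups and the FIBP and TMEM259 groups each form 1 table with its own pair of control libraries. The treatment protocol, the same for all libraries, names the Qiagen AllStars negative control, while control titles read NTC for DDX39A and SARNP but NEGsiRNA for the remaining 2 tables. Labels that misspell a target ("SARPN siRNA9", "FIPBkd6") were read as SARNP and FIBP. The labels do not say whether libraries sharing a group were transfected independently. The p-values therefore measure the spread between libraries, drawn largely from all genes of a table, which may be technical.

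YAP (gene YAP1) and its paralog TAZ (gene WWTR1) are transcription coactivators that have no DNA-binding domain and act on chromatin mainly through the TEAD factors. The Hippo kinases, among them LATS1 and LATS2, phosphorylate YAP and TAZ, which keeps them in the cytoplasm and leads to their degradation. CYR61, CTGF and ANKRD1 are widely used as readouts of YAP/TEAD activity, and LATS2, AMOTL2 and AJUBA are both targets and regulators of the pathway. Because phosphorylation and location of the YAP protein are not seen in mRNA, the values below are transcript levels and not pathway activity.

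The TEAD factors bind a short element whose core reads GGAATG, or CATTCC on the other strand. The 250 bases before the annotated start were searched on both strands for these letters in the RefSeq promoter set (GRCh38.p14), in which 8 of the 10 genes have 11 entries, and CYR61 and TEAD1 have none. A match was found in 5 entries, 1 each of CTGF, ANKRD1, AMOTL2, AJUBA and YAP1, where AMOTL2 and AJUBA each have a second entry without one. The entries of AMOTL1, LATS2 and WWTR1 had no match. Over all 35116 promoter entries, 11.9% had at least 1 match, 0.94% had at least 2 and 0.0826% had at least 3. The 3 sequences shown belong to the target genes CTGF, with 3 matches, and ANKRD1, with 2, and to the regulator AMOTL2, with 1, whose transcripts had large ranges over the 10 siRNAs. They are printed 5′ to 3′ on the gene's strand, which is the minus strand for all 3, from chr6:131951373-131951622, chr10:90921088-90921337 and chr3:134374448-134374697, and capitals mark the matches, none of which overlap. A match is a run of letters and no evidence of binding here.
CTGF: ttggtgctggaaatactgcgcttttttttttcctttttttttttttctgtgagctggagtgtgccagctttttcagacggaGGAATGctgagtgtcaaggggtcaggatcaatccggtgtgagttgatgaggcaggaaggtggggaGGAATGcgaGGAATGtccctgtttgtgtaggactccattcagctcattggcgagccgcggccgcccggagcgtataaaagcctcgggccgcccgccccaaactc
ANKRD1: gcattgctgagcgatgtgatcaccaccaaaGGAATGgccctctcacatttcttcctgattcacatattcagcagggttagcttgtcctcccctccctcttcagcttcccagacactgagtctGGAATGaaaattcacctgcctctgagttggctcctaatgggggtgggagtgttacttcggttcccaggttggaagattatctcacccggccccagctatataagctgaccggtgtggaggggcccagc
AMOTL2: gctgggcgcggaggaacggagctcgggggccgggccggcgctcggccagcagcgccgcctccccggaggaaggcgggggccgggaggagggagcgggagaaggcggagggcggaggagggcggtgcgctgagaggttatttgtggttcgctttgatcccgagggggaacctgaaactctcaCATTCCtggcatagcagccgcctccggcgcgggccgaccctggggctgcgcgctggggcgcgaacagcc

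Gene reads per library ranged from 8966609 to 26128173 over the 3 tables. The 10 genes were well covered, with the lowest recovered count in any library being 148 reads, for CTGF. Each targeted transcript was reduced to between 8.48% and 48.3% of its control mean. The remainder was 33.3% and 26.8% with SART1 siRNA4 and siRNA6, and 14.0% and 16.5% with DDX39A siRNA1 and siRNA4. It was 13.5% and 8.48% with SARNP siRNA3 and siRNA9, and 11.0% and 17.1% with FIBP siRNA6 and siRNA7. TMEM259 siRNA5 left 30.3% and siRNA6 48.3%, so the siRNAs compared below differ in remaining target. Of 8 markers of kidney epithelium or clear cell renal carcinoma, 7 were listed in every table (CA9 was not), with summed normalised counts of 15800 to 36700. Of 4 leukocyte markers only CD68 was listed, none of 3 endothelial markers was, and of 4 fibroblast markers COL1A1 and PDGFRB were, at sums of 33.5 to 149. In these bulk libraries fewer cells of a kind and less RNA per cell cannot be told apart. GENCODE 29 places genes on the opposite strand over CTGF, YAP1, WWTR1, TEAD1, AMOTL1 and LATS2. On the same strand it places a protein-coding gene over AJUBA. Same-strand pseudogene, small RNA or intronic entries lie over AMOTL2, WWTR1, TEAD1 and LATS2. None of these is listed in the tables, and whether counting used strand is not given in the sources used here.

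In the control libraries CYR61, a secreted matrix protein of the CCN family, had the highest level of the 10 genes per kilobase of exon (exon union of GENCODE 29). Its level was 2960 normalised counts per kilobase ± 33.1 in the DDX39A and SARNP table, 3140 ± 37.5 in the FIBP and TMEM259 table and 5100 ± 10.0 in the SART1 table (SD, n = 2 each). WWTR1 was second in all 3 tables, at 1100 ± 11.3, 926 ± 29.6 and 1440 ± 24.1 per kilobase. YAP1, its paralog, stood at 292 ± 0.502, 161 ± 7.85 and 349 ± 1.03. AMOTL1, a member of the angiomotin family that binds YAP, was lowest in all 3, at 76.2 ± 3.41, 43.7 ± 0.401 and 91.5 ± 5.60. ANKRD1 had 986 ± 52.9, 383 ± 43.4 and 758 ± 79.5 per kilobase, and CTGF, a CCN protein like CYR61, had 111 ± 3.34, 93.8 ± 10.3 and 157 ± 11.9. Some neighbours in the order overlapped between libraries. These were CTGF and LATS2 in the DDX39A and SARNP table, AJUBA with ANKRD1, TEAD1 with YAP1 and LATS2 with CTGF in the FIBP and TMEM259 table, and AMOTL2 with ANKRD1 in the SART1 table. The tables were normalised separately, so levels are not compared between them.

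**Figure D1:**
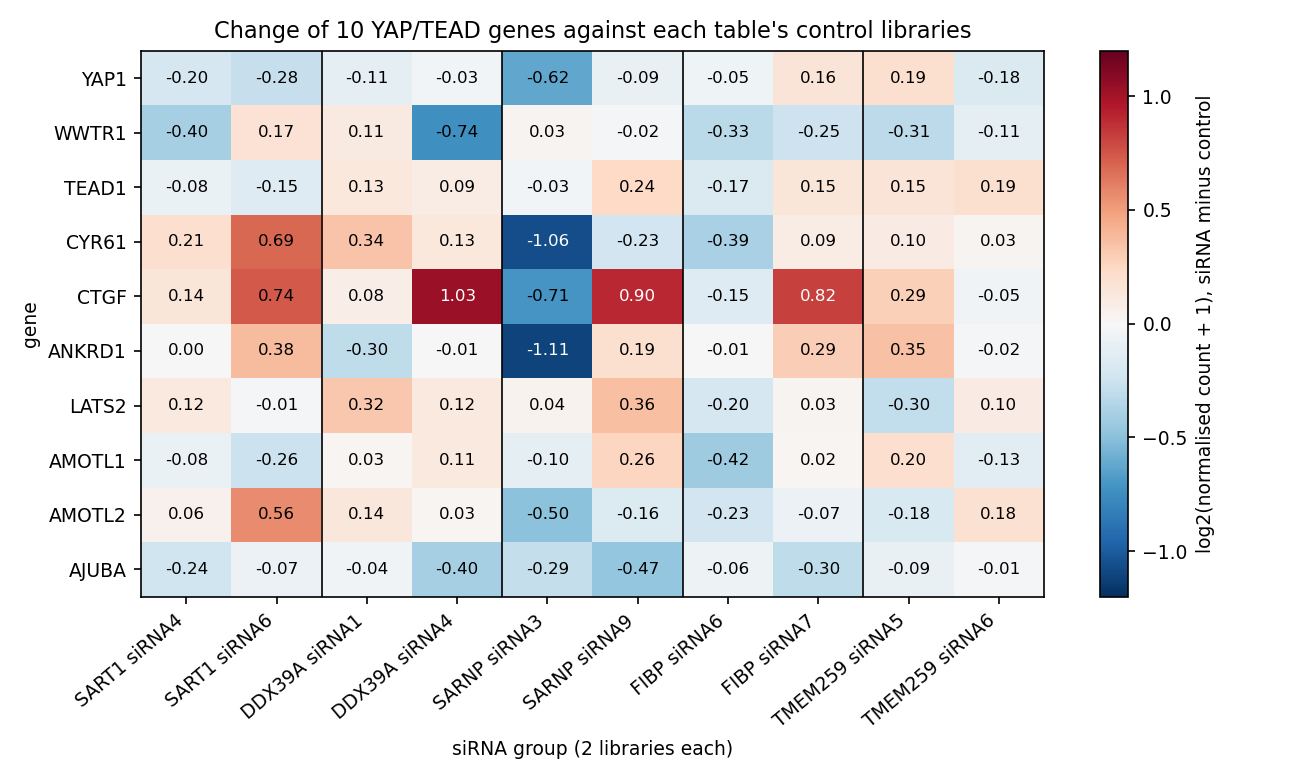
Each cell gives the difference in log2(normalised count + 1) between the 2 libraries of an siRNA (columns) and the 2 control libraries of its table (mean against mean) for 1 gene (rows). CYR61, CTGF and ANKRD1 each have their lowest value with SARNP siRNA3 and a value above 0.3 with SART1 siRNA6, while every AJUBA value lies below 0.

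The largest differences from control were in the 3 target genes, and the direction depended on the siRNA, as the heat map of changes shows. CYR61 ranged from -1.06 on the log2(normalised count + 1) scale with SARNP siRNA3 to 0.69 with SART1 siRNA6. CTGF, a growth factor of the extracellular matrix, ranged from -0.71 with SARNP siRNA3 to 1.03 with DDX39A siRNA4. ANKRD1, a nuclear ankyrin repeat protein, ranged from -1.11 with SARNP siRNA3 to 0.38 with SART1 siRNA6. The genes for the coactivators and TEAD1 covered narrower ranges, with YAP1 from -0.62 to 0.19, WWTR1 from -0.74 to 0.17 and TEAD1 from -0.17 to 0.24. The regulators ran from -0.30 to 0.36 for the kinase gene LATS2, from -0.42 to 0.26 for AMOTL1, from -0.50 to 0.56 for AMOTL2 and from -0.47 to -0.01 for AJUBA. All folds below are on this scale, and a standard error (SE) is that of the linear model fitted to the table.

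YAP1 was lowest with SARNP siRNA3, where the 2 libraries had normalised counts of 1004 and 1133 against 1644 and 1640 in the controls and 1548 and 1531 with SARNP siRNA9. The siRNA3 libraries lay far below the rest of their table, at a log2 difference from control of -0.62 (SE 0.05). Both SART1 siRNAs also gave values below both controls, 1738 and 1673 with siRNA4 and 1657 and 1588 with siRNA6 against 1968 and 1960. Over the 10 siRNAs YAP1 lay below both controls without overlap for 7, above both for 2 (FIBP siRNA7 and TMEM259 siRNA5) and overlapped for 1 (FIBP siRNA6). Such tallies, here and for the genes below, rest on 3 pairs of control libraries, so the siRNAs are not independent. How often genes in general lay apart from their controls was not counted.

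WWTR1, which encodes TAZ, was lowest with DDX39A siRNA4. The 2 libraries had 3652 and 3428 normalised counts against 5858 and 5944 in the controls, 60.0% of the control mean. With the other DDX39A siRNA, siRNA1, the values were 6444 and 6262, above both controls. SART1 showed the same kind of split, with 5932 and 5835 for siRNA4 and 8712 and 8747 for siRNA6 around controls of 7663 and 7846. In the FIBP and TMEM259 table all 8 siRNA libraries, at 3907 to 4696, lay below the controls of 4857 and 5082. WWTR1 was thus lower without overlap for 6 siRNAs, higher for 3 and overlapping for 1 (SARNP siRNA9).

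TEAD1, the DNA-binding partner of both coactivators, stayed within 0.24 of control on the log2 scale with every siRNA. It was highest relative to control with SARNP siRNA9, at 2175 and 2172 normalised counts against 1801 and 1889. It was lowest with FIBP siRNA6, at 1340 and 1401 against 1578 and 1504. Both TMEM259 siRNAs gave values above both controls, 1665 and 1760 with siRNA5 and 1725 and 1794 with siRNA6.

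**Figure D2:**
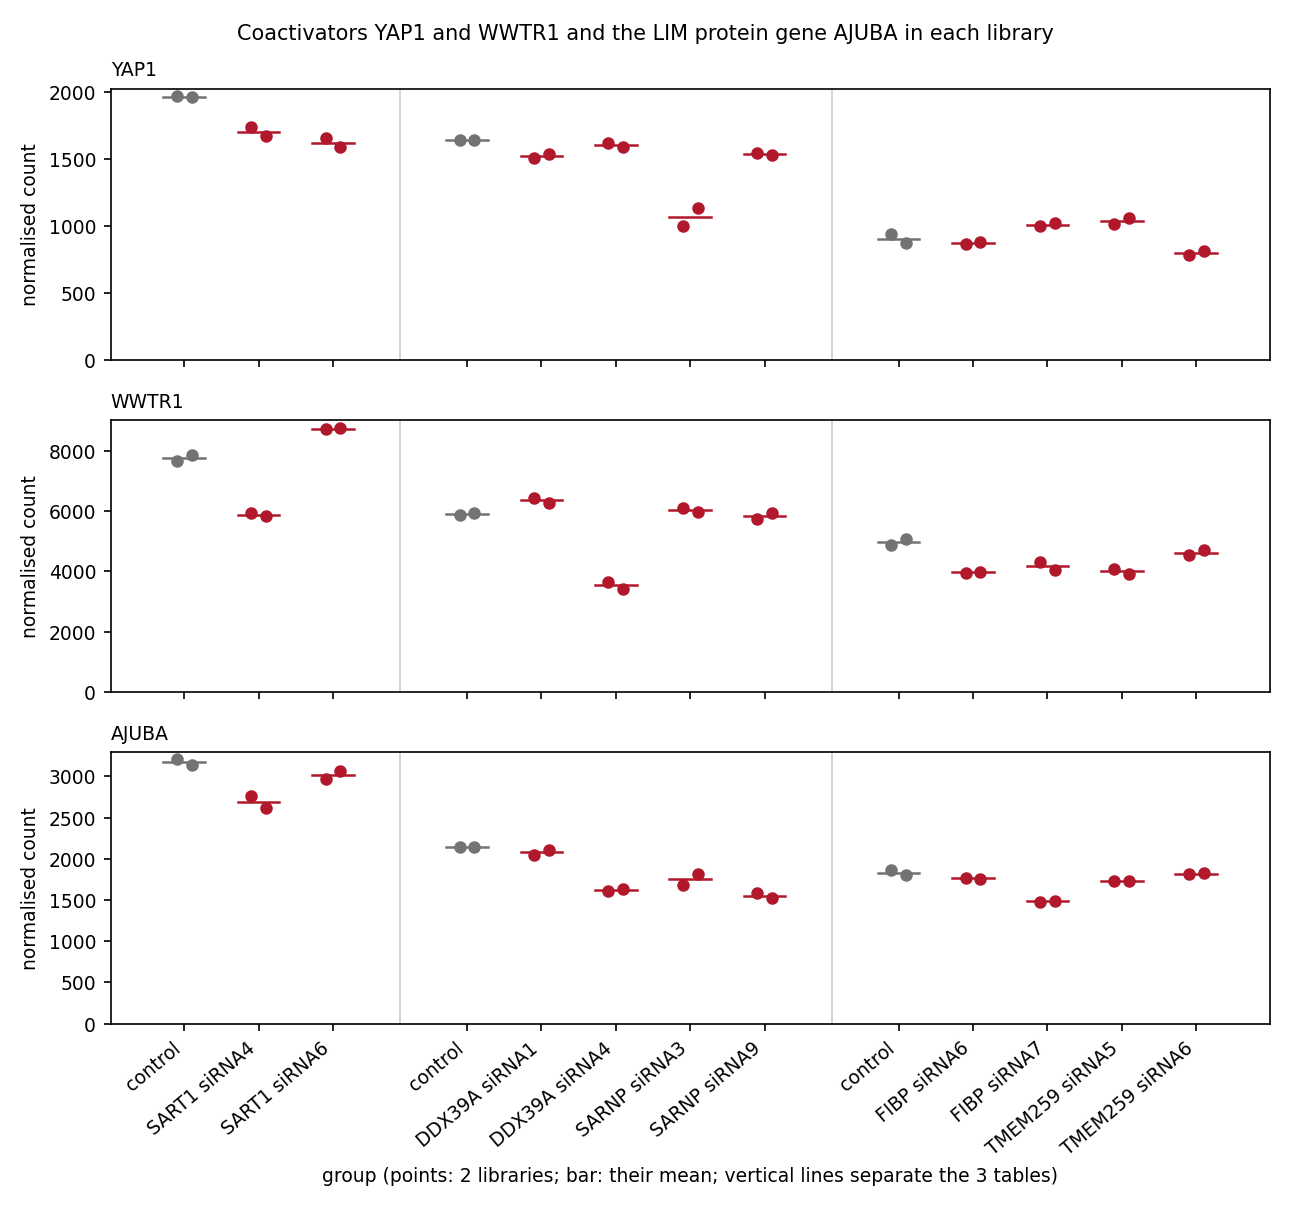
Normalised counts (y axis, from 0) of YAP1, WWTR1 and AJUBA in each library, by group (x axis), with control groups in grey, siRNA groups in red and bars at the mean of 2 libraries. YAP1 is lowest in its table with SARNP siRNA3, WWTR1 is lowest in its table with DDX39A siRNA4, and no AJUBA siRNA group has a mean above its controls.

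CYR61 was 48.0% of control with SARNP siRNA3, where the libraries had 3119 and 3375 normalised counts against 6825 and 6717 in the controls. SARNP siRNA9 gave 5834 and 5727, also below both controls and above both siRNA3 libraries. SART1 siRNA6 gave the largest value above control, 18899 and 18744 against 11652 and 11684, which is 1.61-fold. SART1 siRNA4 lay between, at 13219 and 13702. After quantile normalization the log2 changes were smaller, at 0.53 with SART1 siRNA6 and 0.13 with siRNA4, against 0.69 and 0.21 in the main fit. Both DDX39A siRNAs were above control as well, at 8499 and 8696 for siRNA1 and 7437 and 7359 for siRNA4. FIBP siRNA6 gave 5423 and 5574 against controls of 7139 and 7261, whereas FIBP siRNA7, at 7649 and 7645, and TMEM259 siRNA5, at 7849 and 7586, lay just above them, and TMEM259 siRNA6, at 7527 and 7227, overlapped them.

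CTGF was highest relative to control with DDX39A siRNA4, at 528 and 534 normalised counts against 264 and 253 in the controls (2.05-fold). SARNP siRNA9 gave 453 and 517, and SARNP siRNA3 gave 154 and 161, so the 2 siRNAs to SARNP lay on opposite sides of the same controls. FIBP siRNA7 gave 358 and 417 against 236 and 202, and FIBP siRNA6, at 209 and 185, overlapped those controls. For SART1, siRNA6 gave 621 and 603 against 386 and 347, and siRNA4, at 383 and 427, overlapped the controls. TMEM259 siRNA5 was above both controls at 272 and 263, and siRNA6 overlapped them at 218 and 206.

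ANKRD1 was split between the SARNP siRNAs in the same way. The controls had 1877 and 2025 normalised counts, siRNA3 had 954 and 855, and siRNA9 had 2128 and 2324. SART1 siRNA6 was above both controls, 1972 and 1917 against 1611 and 1388, and siRNA4 lay between them at 1530 and 1470. DDX39A siRNA1 was below both controls at 1473 and 1699, while DDX39A siRNA4 overlapped them at 1972 and 1904. In the FIBP and TMEM259 table, with controls of 698 and 820, FIBP siRNA7 (947 and 905) and TMEM259 siRNA5 (1064 and 873) were higher and the other 2 siRNAs overlapped.

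**Figure D3:**
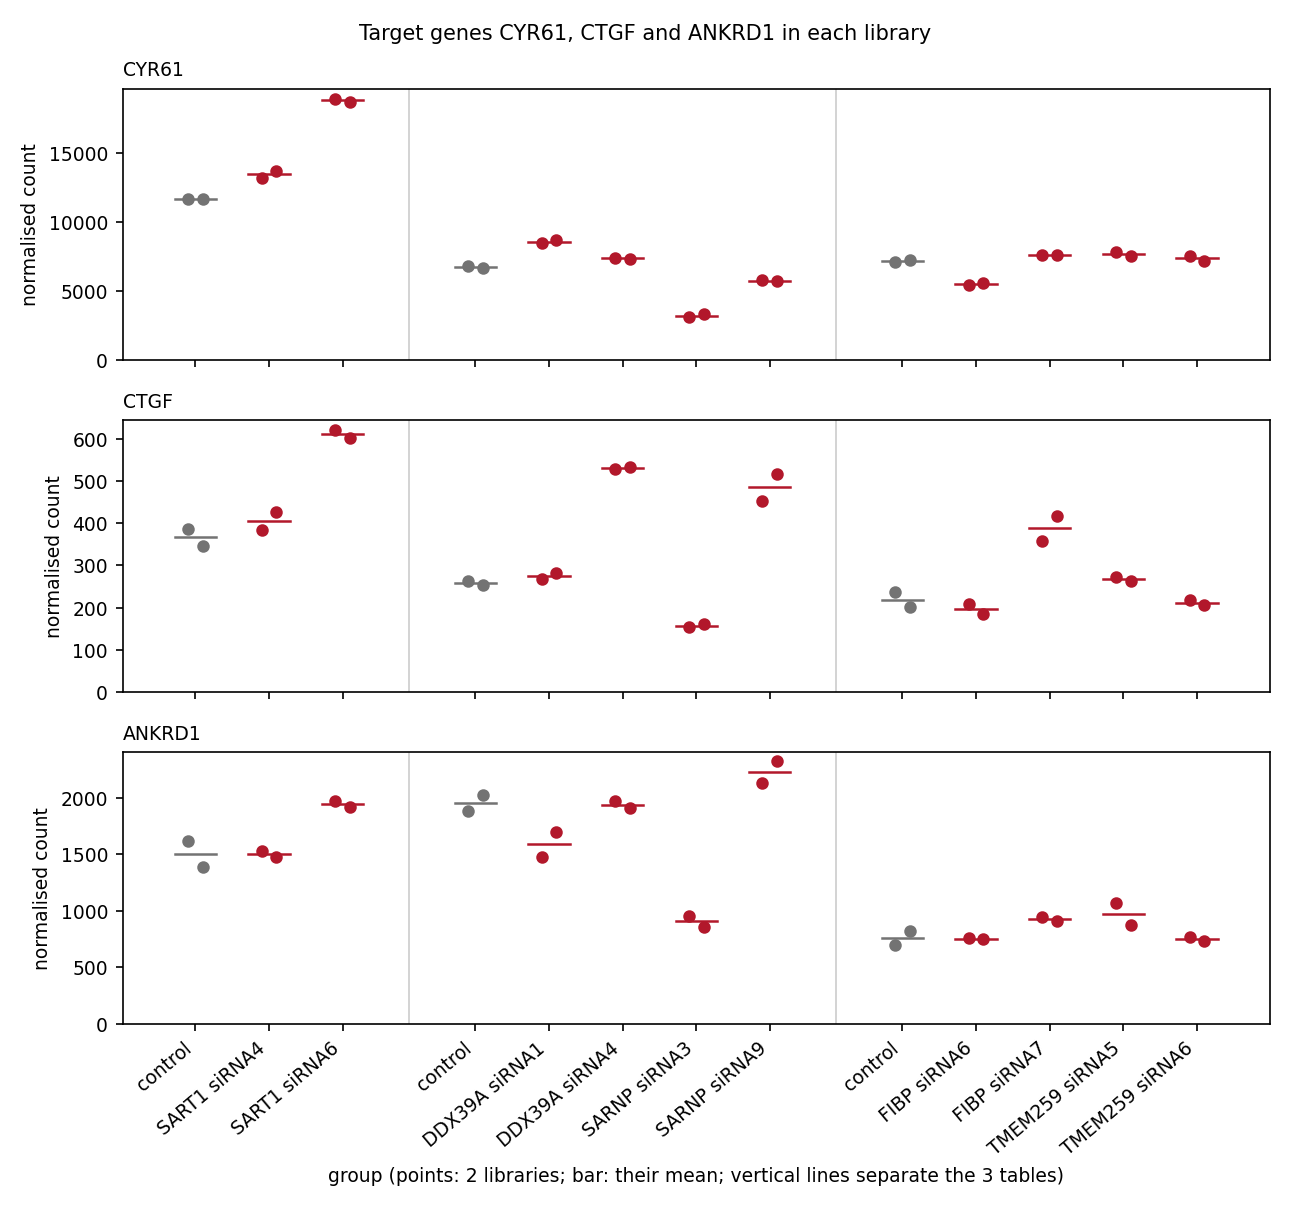
Normalised counts (y axis, from 0) of CYR61, CTGF and ANKRD1 in each library, by group (x axis), with control groups in grey, siRNA groups in red and bars at the mean of 2 libraries. All 3 genes are lowest in their table with SARNP siRNA3 and highest in theirs with SART1 siRNA6, and CTGF and ANKRD1 lie above control with SARNP siRNA9.

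Among the regulators, AJUBA, a LIM protein that binds LATS kinases, was the only one of the 10 genes with no mean change above 0, also under the alternative scalings. Its libraries were below both controls without overlap for 9 siRNAs, a tally that has no share of all genes beside it. They overlapped for TMEM259 siRNA6, at 1817 and 1823 normalised counts against 1860 and 1807, so both lay above control replicate 2. The lowest values were 1580 and 1521 with SARNP siRNA9 and 1609 and 1635 with DDX39A siRNA4, against shared controls of 2144 and 2140. In the other tables FIBP siRNA7 gave 1481 and 1494 against 1860 and 1807, and SART1 siRNA4 gave 2762 and 2618 against 3214 and 3141. The differences for SART1 siRNA6, DDX39A siRNA1, FIBP siRNA6 and TMEM259 siRNA5 were small, from -0.09 to -0.04, with 95% intervals that include 0.

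AMOTL2, a scaffold that binds YAP and activates LATS, followed CYR61 in its extremes. It was 1770 and 1958 normalised counts with SARNP siRNA3 against 2700 and 2556 in the controls, and 5602 and 5658 with SART1 siRNA6 against 3865 and 3759. Its paralog AMOTL1 did not, with 614 and 662 against 708 and 664 and 671 and 703 against 788 and 859 in the same 2 groups. AMOTL1 was lowest relative to control with FIBP siRNA6, at 277 and 310 against 391 and 396. LATS2 was highest relative to control with SARNP siRNA9, at 755 and 691 against 600 and 529, and lowest with TMEM259 siRNA5, at 432 and 437 against 557 and 512. Neither pair of LATS2 values overlapped its controls.

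The 2 siRNAs to a target were then set against each other. This contrast uses no control library, but it equals the difference of the 2 changes against control. Those changes were in view when the genes were chosen, so the adjusted p-values are no independent support. The differences passed an adjusted p of 0.05 for 9 of the 10 genes for SARNP, where 64.1% of all genes tested passed, and for 9 for FIBP (35.7% of all genes). They passed for 7 for SART1 (38.5%), 7 for TMEM259 (32.1%) and 6 for DDX39A (50.6%). For SARNP the 3 target genes differed most. CTGF was 1.61 higher on the log2 scale with siRNA9 than with siRNA3 (SE 0.09, adjusted p = 1.9e-18), ANKRD1 was 1.30 higher (SE 0.06, adjusted p = 1.2e-20) and CYR61 0.83 higher (SE 0.04, adjusted p = 2.0e-19). YAP1, at 0.53 higher (SE 0.05, adjusted p = 6.4e-11), and the other passing genes except AJUBA went the same way. The difference of AJUBA, -0.18, did not pass without replicate 2 of siRNA3 (adjusted p = 0.087). WWTR1 did not pass, with a 95% interval from -0.14 to 0.04.

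For FIBP 8 of the 9 passing genes were higher with siRNA7 than with siRNA6, led by CTGF at 0.97 (SE 0.10, adjusted p = 1.8e-10), CYR61 at 0.48 (SE 0.04, adjusted p = 4.0e-15) and AMOTL1 at 0.44 (SE 0.08, adjusted p = 3.1e-05). AJUBA was lower with siRNA7, at -0.24, and WWTR1 did not pass (95% interval -0.01 to 0.15). AMOTL2, at 0.16, did not pass without replicate 1 of siRNA6 (0.08, adjusted p = 0.28) or without replicate 1 of siRNA7 (adjusted p = 0.11). LATS2, at 0.23, did not pass without replicate 2 of siRNA6 (0.15, adjusted p = 0.21) or without replicate 1 of siRNA7 (adjusted p = 0.15).

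For SART1 the genes that were higher with siRNA6 than with siRNA4 were CTGF, by 0.60 on the log2 scale (SE 0.08, adjusted p = 1.9e-06), WWTR1, by 0.57 (SE 0.03, adjusted p = 1.8e-12), AMOTL2, by 0.51 (SE 0.04, adjusted p = 6.9e-11), CYR61, by 0.48 (SE 0.03, adjusted p = 1.1e-11), ANKRD1, by 0.37, and AJUBA, by 0.17. AMOTL1, at -0.18, passed narrowly (adjusted p = 0.036) and did not pass without replicate 1 of siRNA4 (-0.09, adjusted p = 0.39) or without either replicate of siRNA6 (adjusted p = 0.21 and 0.064). YAP1 (95% interval -0.17 to 0.02), TEAD1 (-0.16 to 0.02) and LATS2 (-0.25 to -0.01) did not pass, and LATS2 passed without replicate 2 of siRNA4 (-0.20, adjusted p = 0.024).

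For DDX39A the coactivator gene WWTR1 and the target CTGF differed in opposite directions. WWTR1 was lower with siRNA4 than with siRNA1, at -0.84 (SE 0.04, adjusted p = 6.5e-19), and CTGF was higher, at 0.95 (SE 0.09, adjusted p = 1.7e-11). ANKRD1 was also higher with siRNA4, at 0.29, and AJUBA, at -0.36, CYR61, at -0.22, and LATS2, at -0.21, were lower. LATS2 did not pass without replicate 2 of siRNA1 (-0.13, adjusted p = 0.22) or without replicate 1 of siRNA4 (adjusted p = 0.084). YAP1 did not differ detectably (95% interval -0.03 to 0.18).

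For TMEM259 no difference between siRNAs exceeded 0.40. With siRNA6 compared with siRNA5, LATS2 (0.40), AMOTL2 (0.36) and WWTR1 (0.21) were higher, and ANKRD1 (-0.37), YAP1 (-0.37), CTGF (-0.34) and AMOTL1 (-0.33) were lower. CTGF, at an adjusted p of 0.010, did not pass without replicate 1 of siRNA5 (adjusted p = 0.074) or without replicate 2 of siRNA6 (adjusted p = 0.085). CYR61 did not pass (95% interval -0.14 to 0.01).

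With DESeq2 on recovered reads, 4 of the differences between siRNAs did not pass. These were CTGF for TMEM259 (adjusted p = 0.069), AMOTL1 for SART1 (adjusted p = 0.15), LATS2 for DDX39A (adjusted p = 0.077) and LATS2 for FIBP (adjusted p = 0.12). After quantile normalization AMOTL1 for SART1 did not pass (adjusted p = 0.11), while CYR61 for TMEM259 (-0.15, adjusted p = 0.001) and AMOTL2 for DDX39A (-0.12, adjusted p = 0.047) did.

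**Figure D4:**
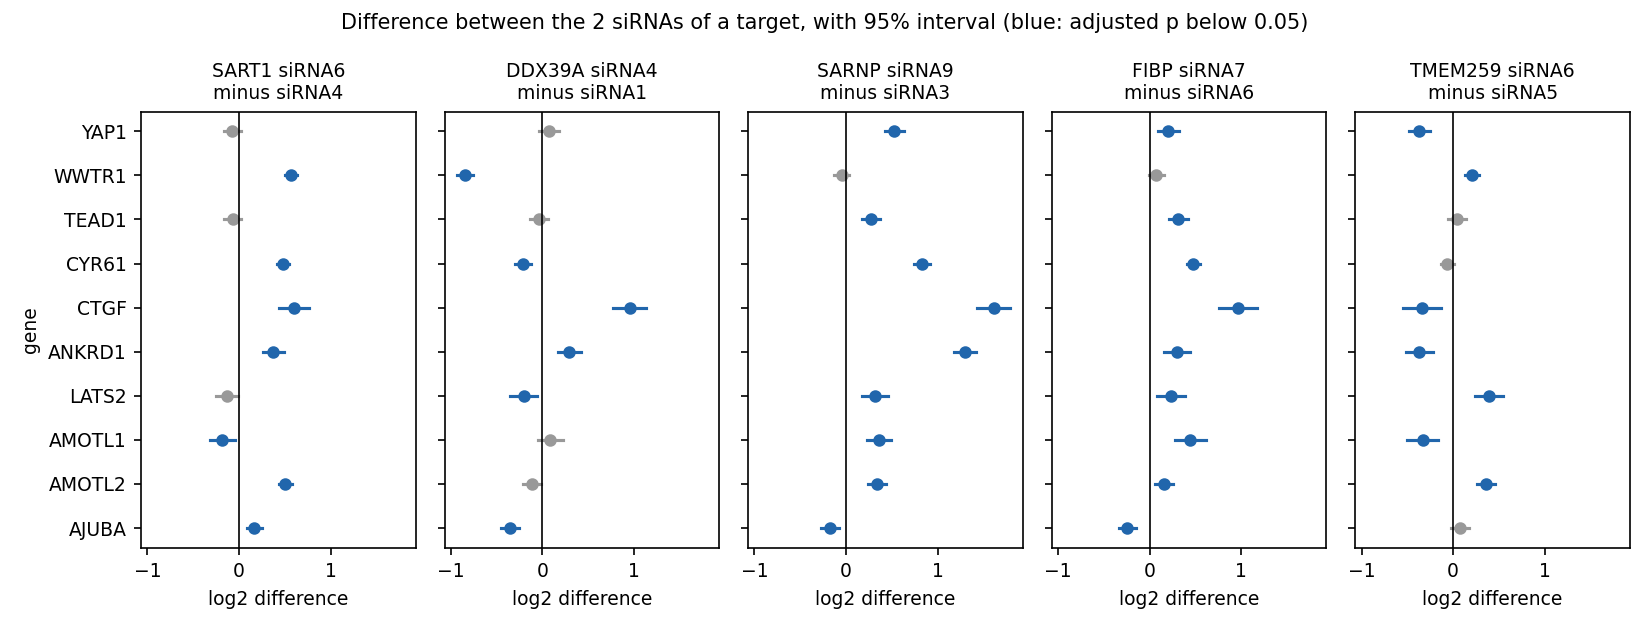
Difference in log2(normalised count + 1) between the 2 siRNAs of each target (panels) for the 10 genes (y axis), with the 95% interval as a line and blue where the adjusted p was below 0.05. CTGF with SARNP has the largest difference, 1.61, and WWTR1 with DDX39A, at -0.84, lies opposite to CTGF there.

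Across the 10 siRNAs the change of CYR61 ran with that of AMOTL2 (Pearson r = 0.896), ANKRD1 (r = 0.732) and CTGF (r = 0.608), and not with that of WWTR1 (r = 0.00122), TEAD1 (r = 0.0328) or LATS2 (r = 0.0898). Its correlation with YAP1 was 0.455, and that of ANKRD1 with YAP1 was 0.766. CTGF and AJUBA had r = -0.455. These are descriptions over n = 10 siRNAs that share control libraries within a table, and SARNP siRNA3 and SART1 siRNA6 are the extremes of several of these genes. Among 9906 genes with a mean of at least 50 in each table, AMOTL2 was 10th by its correlation with CYR61, ANKRD1 215th and CTGF 629th. Among the 4630 of these that also changed by at least 0.5 with some siRNA, the 5 genes most like CYR61 were RAB7A (r = 0.946), a GTPase of late endosomes, CDC42EP3 (r = 0.921), an effector of CDC42 and itself a reported YAP/TAZ target, ACTR6 (r = 0.917), an actin-related nuclear protein, TMED10 (r = 0.914), a cargo receptor of the secretory pathway, and ETS1 (r = 0.897), a transcription factor. Like CYR61, to which they were matched, all 5 were lowest with SARNP siRNA3 and highest with SART1 siRNA6.

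A wider set of Hippo genes, none of them among the 10, was examined by role. It held 33 kinases, scaffolds and other regulators, 6 TEAD factors and cofactors, and 25 reported YAP/TAZ targets, of which 30, 3 and 22 were listed in all tables, 55 in all. A gene was counted when both siRNAs passed an adjusted p of 0.05 with 1 sign, and each share is given beside that of all genes tested for the same target and direction. These libraries were in view when the lists were written. For SARNP 8 of the 22 targets fell with both siRNAs (36.4%, against 7.15% of all genes) and none rose with both (7.17% of all genes). Taken singly, siRNA3 had 18 targets that passed as lower and 2 as higher. With siRNA9 12 passed as lower and 6 as higher. These single counts have no share of all genes beside them. The median log2 change of the 22 targets was -0.36 with siRNA3 and -0.22 with siRNA9, beside 0.00 for all genes tested with each siRNA. Targets also held the falls with the largest mean over both siRNAs. ARHGAP29, a GTPase-activating protein, had means of 3230 ± 163 normalised counts in controls, 2550 ± 85.9 with siRNA3 and 472 ± 0.056 with siRNA9 (SD, n = 2 each), a log2 change of -0.34 (adjusted p = 7.1e-07) and -2.77 (adjusted p = 5.4e-33). IGFBP3, which binds insulin-like growth factors, changed by -0.69 and -1.42, and TGFB2, a TGF-beta ligand, by -0.55 and -1.26. Among the 30 regulators 5 rose (16.7%) and 4 fell (13.3%) with both SARNP siRNAs.

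For SART1 10 of the 30 regulators rose (33.3%, against 22.9% of all genes) and 4 fell (13.3%, against 20.0%). The Hippo kinase gene LATS1 changed by 0.44 (adjusted p = 3.5e-07) and 0.41 (adjusted p = 6.9e-07), and NF2, the upstream activator merlin, by 0.33 (adjusted p = 1.7e-06) and 0.34 (adjusted p = 8.7e-07). Both were picked out after their values were seen. The rest of those that rose were FRMD6 (0.14 and 0.68), STRN3 (0.27 and 0.53), SIKE1 (0.34 and 0.39), MOB1B (0.22 and 0.31), PTPN14 (0.20 and 0.24), WWC2 (0.195 and 0.24), TAOK1 (0.22 and 0.21) and STK3 (0.20 and 0.18). The list was not divided into activators and inhibitors of the pathway. The 4 regulators that fell were SCRIB (-0.35 and -0.43), AMOT (-0.88 and -0.24), TAOK2 (-0.13 and -0.30) and WWC3, given below. Of the 22 targets 6 rose (27.3%) and 5 fell (22.7%). NUAK2, a kinase of the AMPK family, had 309 ± 10.80 normalised counts in controls, 454 ± 33.3 with siRNA4 and 645 ± 13.5 with siRNA6, a change of 0.55 and 1.06. GADD45A, a stress response gene, changed by 0.61 and 0.89, and WWC3, a scaffold that activates LATS, by -0.87 and -0.36.

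For DDX39A 4 regulators rose and none fell (13.3%, against 8.67% of all genes higher and 6.37% lower), and 4 targets rose (18.2%) and 3 fell (13.6%). THBS1, the matrix protein thrombospondin 1, had 9850 ± 229 normalised counts in controls, 19200 ± 1050 with siRNA1 and 15900 ± 1280 with siRNA4, a change of 0.96 and 0.69. NUAK2 changed by 0.93 and 0.73, TNIK, a MAP4K family kinase, by 0.80 and 0.47, and CCDC80, a matrix protein, by -1.45 and -0.31. Of TEAD3, TEAD4 and VGLL4, the genes of the TEAD factor and cofactor list that were listed, only VGLL4, a TEAD-binding repressor of YAP, passed with both siRNAs, at 0.29 (adjusted p = 0.0022) and 0.39 (adjusted p = 5.1e-05). VGLL4 was named after its values were seen.

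For FIBP 3 targets rose (13.6%, against 4.68% of all genes), and 2 targets (9.09%) and 2 regulators (6.67%) fell (4.39% of all genes). For TMEM259 1 target rose (4.55%, against 2.56% of all genes), and 4 targets (18.2%) and 1 regulator (3.33%) fell (2.41% of all genes). IGFBP3 fell with both FIBP siRNAs, at -1.14 and -0.58, as did AMOT, the founding angiomotin, at -0.48 and -0.78. NT5E, a cell surface nucleotidase, changed by 0.21 and 0.64, and WWC3 by -0.26 and -0.69. Without replicate 2 of the controls NT5E changed by 0.05 with siRNA6 (adjusted p = 0.73), and without replicate 1 of siRNA6 by 0.18 (adjusted p = 0.17). WWC3 with siRNA6 did not pass when any 1 of its 4 libraries was left out (adjusted p = 0.07 to 0.20). TGM2, a transglutaminase, fell with both TMEM259 siRNAs, at -0.55 and -0.51. CCDC80 changed by -0.27 and -0.53 and MYOF, a membrane repair protein, by -0.11 and -0.48. With siRNA5 neither CCDC80 (adjusted p = 0.052) nor MYOF (adjusted p = 0.12) passed without replicate 1 of siRNA5. MYOF did not pass either without replicate 2 of siRNA5 (adjusted p = 0.10) or without replicate 1 of the controls (adjusted p = 0.30). With DESeq2 on recovered reads none of these 4 weaker changes passed (adjusted p = 0.32 for NT5E, 0.19 for WWC3, 0.11 for CCDC80 and 0.09 for MYOF).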

How the data were processed

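Poly(A) RNA-seq was used from all 26 libraries, mapped to 13 groups of 2 by their titles. The submitters' processing notes name STAR, HTSeq, Picard and DESeq2, and hg19 as the build, with no roles or versions. The annotation and the strand counted are not given in the sources used here. Per gene symbol, the authors deposited normalised signal, which is a count divided by the size factor of its library. Called normalised counts here, they were whole multiples of 1 step (100% of values within 0.0001 of a read), so reads were recovered. Entries that name no gene were left out. Among them, reads with no feature or an ambiguous one made up 7.01% to 8.45% of all listed reads. Other entries of this kind are not in that share.

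Genes with a mean of at least 10 were tested (11673 for DDX39A and SARNP, 11768 for FIBP and TMEM259, 11823 for SART1) on log2(value + 1). limma 3.58.1 in R 4.3.3 (lmFit, eBayes with trend) was fitted with 1 model per table and Benjamini-Hochberg adjustment, two-sided, threshold 0.05. Residual degrees of freedom were 5, 5 and 3, and prior degrees of freedom, from the trend over all genes, were 31.8, 38.4 and 20.5. The spread behind each p-value therefore rests mostly on that trend. The fit was also run on simulated counts with few changed genes and the same dispersion for every gene. These settings differ from the data, so no support is drawn from that run. Libraries of a group differed by more than counting error (chi-square divided by its degrees of freedom was 1.53 to 2.93), so none was a duplicate.

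The 10 genes and the wider lists were chosen with earlier results of these data known. Named from the wider lists were, for each target, up to 4 genes that both siRNAs called in 1 direction, those with the largest mean change, and the 5 genes most correlated with CYR61. A gene that the rule names is not reported here. Pseudogenes, by GENCODE 29 type, and clone names were left out there. Alternatives were a pseudocount of 5, a minimum mean of 50, no filter, quantile normalization, only the groups compared, a replicate block, edgeR 4.0.16 and DESeq2 1.42.0 on recovered reads, and leaving out each library.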

Additional observations from a re-analysis of the deposited data

How the results depend on the processing

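No difference between siRNAs that passed the threshold for any of the 10 genes changed sign under any alternative. Of 600 recomputed differences between siRNAs, 577 kept their sign and their side of the threshold, 17 lost the call, 3 gained it, and 3 that passed in neither setting changed sign. Against controls, 97 of 1200 recomputed changes of the 10 genes moved by more than 1 SE and 1103 did not. For the wider set, the count called by both siRNAs was 17 for SARNP (14.3% of all genes), 7 for FIBP (9.08%) and 6 for TMEM259 (4.97%). With DESeq2 these counts were 10, 3 and 2, and the shares of all genes with an adjusted p fell too, to 9.23%, 6.47% and 3.09%. Fitting only the groups compared gave 10 for TMEM259 (5.92% of all genes). Leaving out 1 library gave 11 to 16 for SARNP (10.6% to 12.5% of all genes), 4 to 6 for FIBP (5.74% to 8.09%) and 3 to 6 for TMEM259 (2.38% to 3.84%), with the lowest count without replicate 2 of the controls for SARNP and without replicate 1 of the controls for the other 2. The cause of these differences was not tested. Replicate numbers did not pair the samples (correlation of same-numbered deviations -0.06 to 0.05 over 23 pairs of groups). With the replicate block, the wider counts were 25 for SART1 (44% of all genes) and 12 for DDX39A (15%). The main fit gave the same counts for these targets, beside 43% and 15% of all genes. The block gave 16 for SARNP (14% of all genes), 7 for FIBP (8.5%) and 5 for TMEM259 (4.6%). With 2 libraries a group, leaving 1 out assumes that the other varies like the rest of the table. CTGF, with as few as 148 reads, had the widest intervals.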
